A study of Mus musculus with 22 samples.

Results

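The genes whose expression moved in one direction with the loss of NFKBIE wherever the leukemia cells had grown were identified in one fit of all 22 RNA-seq libraries, in which the compartment (PC, spleen or in vitro) was a block and the genotype was the tested term. Of 13538 genes tested, 6026 (44.5%) differed in the same direction in all 3 compartments, 2676 of them higher (19.8%) and 3350 lower (24.7%) in NFKBIE-ko than in NFKBIE-wt cells. The genotype term passed an adjusted p of 0.05 for 3840 genes (28.4%), of which 3462 (25.6% of those tested) were among these genes. It passed with a log2 fold change beyond 1 for 878 genes (6.49%). Those with such a change and the same direction in all compartments, 754 genes (5.57%), are called common genes here, and 392 of them rose and 362 fell.

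The libraries came from the TCL1-355 TKO line, a murine leukemia line established from the Eμ-TCL1 transgenic model of chronic lymphocytic leukemia (CLL), in which human TCL1 is driven in B cells. Both genotypes carried the transgene and biallelic lesions of CDKN2A and CDKN2B, among others. The NFKBIE-ko cells had been electroporated with a Cas9 ribonucleoprotein complex directed at exon 2 of Nfkbie, whereas mock treatment gave the NFKBIE-wt cells. Each genotype was expanded for 21 days in a C57BL/6 mouse of its own, so that a change acquired during that growth and the genotype cannot be told apart. Cells were then injected intraperitoneally into C57BL/6 mice and recovered after 10 days from the peritoneal cavity (PC, 4 libraries per genotype) and the spleen (4 libraries per genotype). The in vitro libraries (3 per genotype) came from cells of the spleens of different mice, cultured for 2 weeks. The cells were deliberately left unpurified, so that host cells are part of the samples, and in such bulk RNA fewer cells of a type and less RNA per cell cannot be told apart. Each group of recipients held 5 mice, so that PC and spleen libraries of a genotype must share some animals, but the labels do not say which, and the fit treated them as independent. PC and spleen libraries of one genotype and number had a consensus correlation of -0.0678, and limma-voom with this correlation called 564 common genes higher and 276 lower, against 558 and 265 without it, although the numbers need not mark the animals.

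NFKBIE encodes IκBε, one of the inhibitors that hold NF-κB dimers in the cytoplasm. When a receptor of the B cell, Toll-like or TNF family is engaged, the IκB proteins are phosphorylated and degraded, and the dimers enter the nucleus, where they bind κB motifs and activate genes of survival, cytokines, adhesion and their own inhibitors. The p100 precursor encoded by Nfkb2 acts as an inhibitor as well and is processed to p52 in the non-canonical pathway.

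The guide is shown because it defines the genotype of every library below. The cr-RNA matched the GRCm39 genome once, on the forward strand of chr17:45869436-45869455, within exon 2 of Nfkbie in every annotated transcript that holds the site and in its coding sequence. Lower case letters give the guide and capitals the adjacent PAM.
Nfkbie cr-RNA target: agtgattcacgaagccccgtCGG

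Nfkbie itself (ENSMUSG00000023947, chr17:45866585-45874661) was not a common gene. In the PC its level was 64.9, 47.2, 55.9 and 47.5 CPM (counts scaled to a common library total by TMM, not corrected for length) in NFKBIE-ko and 67.3, 81.4, 76.6 and 91.2 CPM in NFKBIE-wt libraries. In the spleen it was 120, 54.2, 109 and 112 CPM against 72.7, 70.9, 76.9 and 124 CPM, and in vitro 56, 59.9 and 48.2 CPM against 117, 141 and 54.4 CPM. Only in the PC did the genotypes not overlap. The log2 fold change over all libraries was -0.38 (SE 0.18, adjusted p = 0.127 in edgeR's quasi-likelihood test, adjusted by the Benjamini-Hochberg method as are all p below). The summed RNA level of the targeted gene therefore does not check the label of a single library. The retained-intron transcript of Nfkbie (ENSMUST00000233379, CPM without TMM) was at 16.4 to 30 CPM in NFKBIE-ko against 6.14 to 10.7 CPM in NFKBIE-wt spleens. In vitro it was at 12.7 to 14.6 against 8.51 to 11.7 CPM. The genotypes overlapped for it in the PC (9.77 to 23.6 against 5.56 to 10.9 CPM), and its difference was not tested.

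Total estimated counts lay between 24036409 and 26580975 per library. Of the libraries, 3 stood apart. The one labelled NFKBIE-wt spleen replicate 4 correlated best with the NFKBIE-wt cultures (r = 0.9845 across genes) and about as well with the NFKBIE-ko cultures (0.983). Its r with the other NFKBIE-wt spleens was 0.9431. It had 6.88 CPM of summed erythroid markers, against 319.4 to 2137 CPM in the other NFKBIE-wt spleens. The one labelled NFKBIE-wt in vitro replicate 3 correlated best with the NFKBIE-wt spleens and had 1511 CPM of erythroid markers, against 12.1 and 20.7 CPM in the other NFKBIE-wt cultures. That labelled NFKBIE-wt in vitro replicate 2 correlated best with the NFKBIE-ko cultures (r = 0.986 across genes, against 0.953 with the mean of the other NFKBIE-wt cultures). In vitro replicate 1 was about equally close to both (0.972 and 0.970). For both replicates the mean of the other NFKBIE-wt cultures held in vitro replicate 3, which limits this comparison. Labels were used as given, and results are also reported without the first 2 of these libraries and without all 3. Without all 3, NFKBIE-wt in vitro replicate 1 is the only NFKBIE-wt culture left. Every direction and every overlap in vitro then rests on that library, which limits each count given for that setting.

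The 392 common genes that rose made up 2.9% of the genes tested and the 362 that fell 2.67%. Their median log2 fold change was 2.07 in the PC, 1.44 in the spleen and 1.16 in vitro for genes that rose, and -1.62, -1.56 and -1.94 for genes that fell, where the median of all tested genes was -0.010. Taken alone, the contrast in the PC passed an adjusted p of 0.05 for 307 of the 392 and 190 of the 362 (23.6% of all tested genes), that in the spleen for 178 and 151 (15.7%) and that in vitro, with fewer libraries, for 50 and 61 (2.05%). A fold beyond 1 on the log2 scale in every compartment was seen for 156 of the genes that rose and 182 of those that fell. The genotypes did not overlap in any compartment for 94 of the 392 and for 25 of the 362, and for 153 genes in each direction (1.13%, 2.26% in all) among all tested. The interaction of genotype and compartment passed an adjusted p of 0.05 for 30 of the 392 and 12 of the 362, and for 893 (6.6%) of all tested genes, in edgeR's test. The rule required the same sign in each compartment, so these counts describe the genes and are no test of them.

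At the edges of the rule, the smallest change inside was 1.0004 among genes that rose and -1.0008 among genes that fell, and the nearest outside were 0.9997 and -0.9991. Past the fold with the same direction but with an adjusted p not below 0.05 were 40 genes that were higher and 113 that were lower. Without the libraries labelled NFKBIE-wt spleen replicate 4 and in vitro replicate 3, 481 common genes rose and 342 fell, and 647 of the 754 were shared (85.8% of these and 78.6% of the new set). Without NFKBIE-wt in vitro replicate 2 as well, 585 rose and 428 fell, with 668 shared (88.6% and 65.9%).

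The common genes had low levels. Their median level was 2.28 CPM for those that rose and 1.56 CPM for those that fell, against 24.6 CPM for all tested genes, and 131 and 147 of them lay under 1 CPM. Protein-coding genes made up 96.7% of those that rose and 93.9% of those that fell, against 93.3% of all tested.

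The leading genes were those with the largest changes among common genes with at least 5 CPM in the higher genotype of each compartment and no overlap of the genotypes. Tmed6 (ENSMUSG00000031919, chr8:107788108-107792297), a member of the p24 family that moves cargo in the early secretory pathway, had the largest rise. It was measured at 22.9, 17.5, 18.2 and 21.4 CPM in NFKBIE-ko and 1.54, 0.994, 0.898 and 1.58 CPM in NFKBIE-wt libraries of the PC. In the spleen it was at 21.6, 24.3, 29.2 and 28.9 CPM against 1.37, 2.23, 1.56 and 0.348 CPM, and in vitro at 10.2, 8.36 and 10.2 CPM against 0.603, 0.115 and 1.72 CPM. Every NFKBIE-ko library lay above every NFKBIE-wt library, with a log2 fold change of 3.97 (SE 0.30, adjusted p = 1.89e-08).

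Cd4 (ENSMUSG00000023274, chr6:124841655-124874758), the coreceptor of helper T cells, followed. Its level was 160, 146, 130 and 129 CPM in NFKBIE-ko against 10.4, 15.8, 10.1 and 9.97 CPM in NFKBIE-wt PC, and 132, 162, 109 and 113 CPM against 7.31, 3.64, 4.95 and 24.4 CPM in the spleen. In vitro it was 110, 80.9 and 104 CPM against 11.8, 8.18 and 5.17 CPM. The change was of nearly one size in the 3 compartments (log2 fold changes 3.61, 3.68 and 3.55, adjusted p of the interaction 0.992), and 3.62 in the block fit (SE 0.25, adjusted p = 7.95e-09). Cd3e, which marks T cells, averaged 0.0404 CPM and Cd8a 0 CPM in the NFKBIE-ko cultures, where Cd4 averaged 98.3 ± 15.4 CPM (SD, n = 3). Other T-cell markers were present there, with 451, 307 and 323 counts of Cd6 and 113, 66 and 86 counts of Trac. The sum of all 23 T-cell markers, Cd4 included, was 333.5 to 364.7 CPM in these cultures. The cells that gave the Cd4 RNA were not tested.

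Cdh17 (chr4:11758147-11817895), an intestinal cadherin, rose from 13.7, 11, 10.9 and 10.1 CPM to 124, 121, 97.7 and 98.4 CPM in the PC. It was at 16.9, 19.3, 14.4 and 12 CPM in NFKBIE-ko and 3.98, 2.87, 2.65 and 1.78 CPM in NFKBIE-wt spleens, and at 19.3, 21.6 and 16.1 CPM against 3.02, 2.61 and 3.11 CPM in vitro. The groups stood far apart in each compartment (log2 fold change 2.84, SE 0.14, adjusted p = 2.01e-11). Gpr183 (chr14:122189592-122202610), the oxysterol receptor that positions B cells in lymphoid tissue, rose by 2.34 (SE 0.18, adjusted p = 2.52e-08). Its levels in NFKBIE-ko were 30.2 to 42.5 CPM in the PC, 8.86 to 16 CPM in the spleen and 4.29 to 7.47 CPM in vitro, against 5.5 to 8.04, 1.16 to 2.09 and 1.46 to 2.53 CPM in NFKBIE-wt.

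Of the other leading genes that rose, Myo3b, a class III myosin, had the smallest standard error of the 12 (log2 fold change 2.33, SE 0.10, with 2.37 in the PC, 2.23 in the spleen and 2.39 in vitro). Ifitm1, an interferon-induced membrane protein, rose by 2.32, Ebf3, a transcription factor of the EBF family, by 2.22, and Kynu, which encodes the kynureninase of tryptophan breakdown, by 2.13. Dlgap3, a postsynaptic scaffold gene, rose by 2.10 and Hspg2, which encodes perlecan, by 2.07, with adjusted p between 6.20e-06 and 0.000618 for these 5 genes. For 2 leading genes the size differed between compartments. Gpc1, a heparan sulfate proteoglycan, rose by 4.00 in the PC, 2.82 in the spleen and 1.45 in vitro (adjusted p of the interaction 0.0248), and Pou2af3, a coactivator of POU2 factors, by 2.45, 4.52 and 1.85 (0.04).

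**Figure D1:**
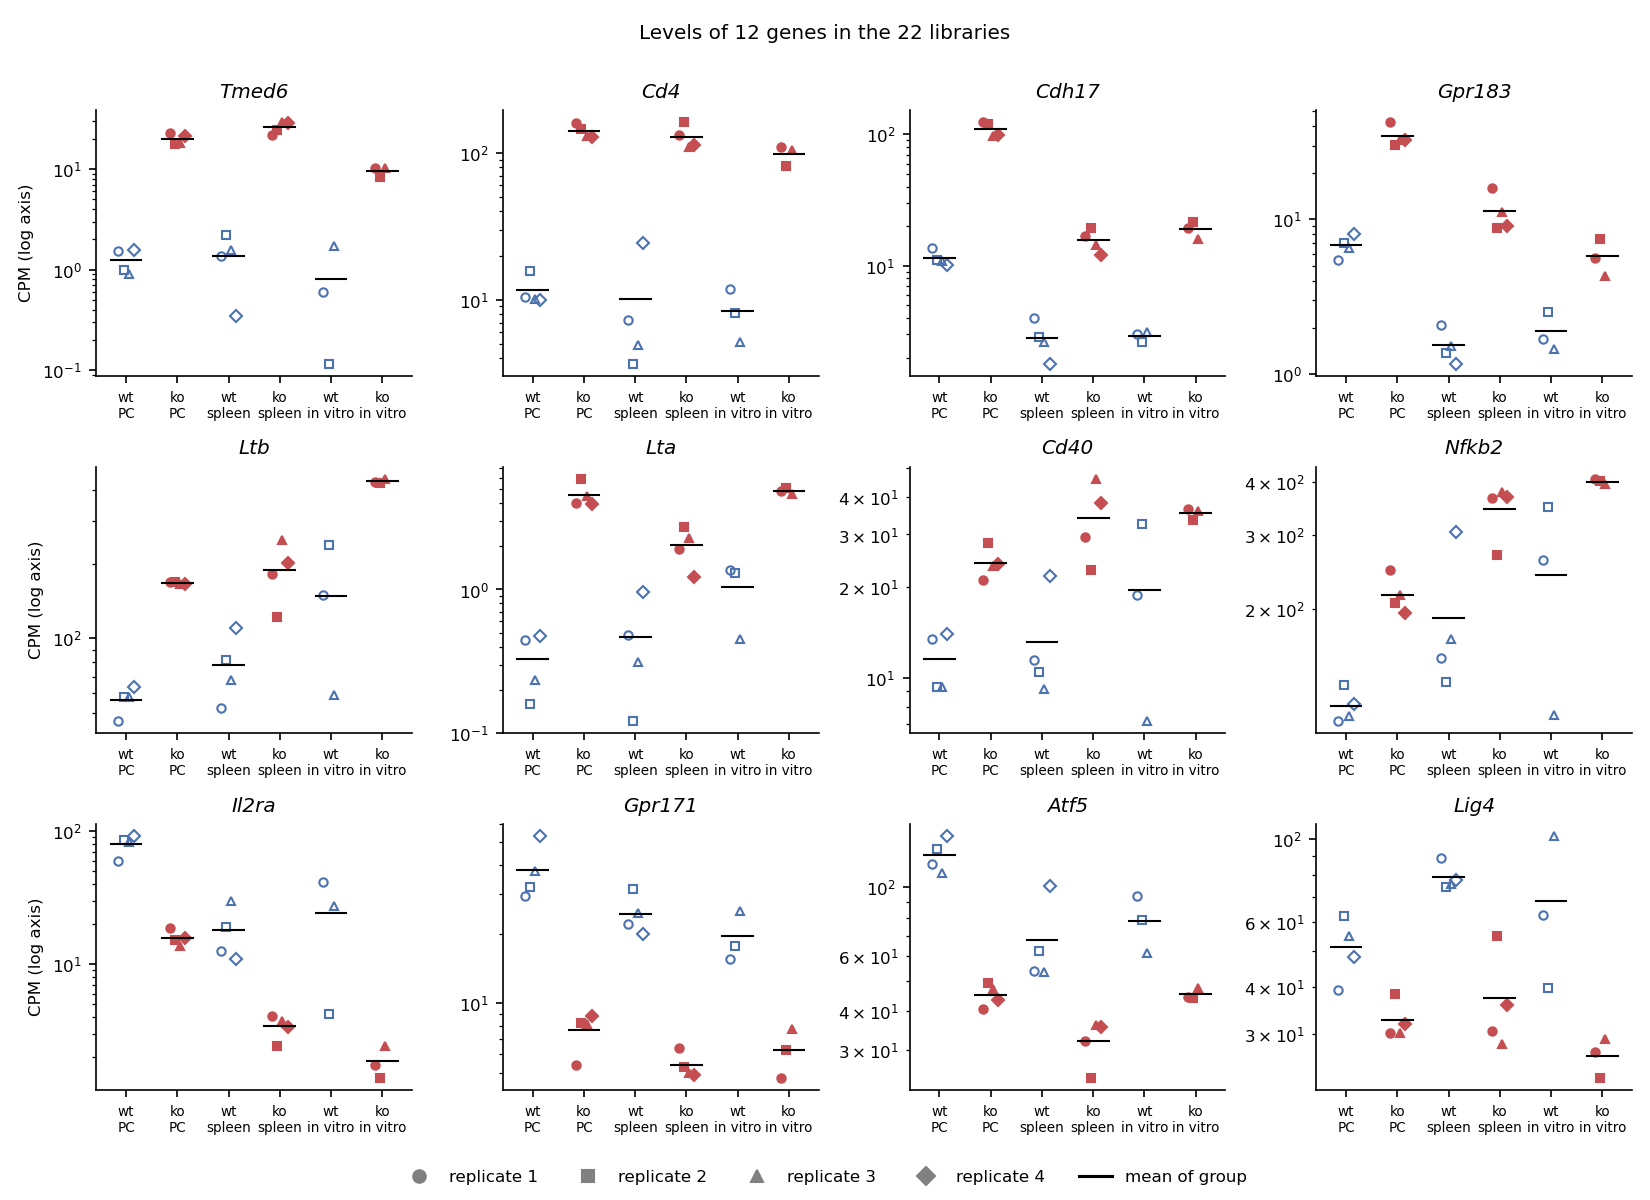
Levels in CPM (log axis) of 12 genes in the 22 libraries, by genotype and compartment, with NFKBIE-wt as open and NFKBIE-ko as filled symbols, the symbol giving the replicate and the bar the mean of the group. For Tmed6 the NFKBIE-ko libraries lie between 8.36 and 29.2 CPM and the NFKBIE-wt libraries between 0.115 and 2.23 CPM, and the lower row shows 4 genes with the opposite order.

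Among the leading genes that fell, Il2ra (ENSMUSG00000026770, chr2:11647618-11698004), the alpha chain of the interleukin 2 receptor, changed most. It was at 18.6, 15.2, 13.7 and 15.7 CPM in NFKBIE-ko and 59.9, 86.2, 83.7 and 91.9 CPM in NFKBIE-wt PC. In the spleen the values were 4.06, 2.44, 3.77 and 3.35 CPM against 12.5, 19.1, 29.9 and 10.9 CPM, and in vitro 1.76, 1.39 and 2.44 CPM against 41.2, 4.26 and 27.5 CPM. No library overlapped, although NFKBIE-wt in vitro replicate 2 was close to the NFKBIE-ko cultures (log2 fold change -2.71, SE 0.30, adjusted p = 4.21e-06).

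Gpr171 (chr3:59003869-59009242), a G protein-coupled receptor, was at 5.4, 8.22, 8.16 and 8.82 CPM in NFKBIE-ko and 29.4, 32, 37.6 and 53.3 CPM in NFKBIE-wt PC. It was at 6.43, 5.28, 5 and 4.87 CPM against 22.2, 31.3, 24.7 and 20 CPM in the spleen, and at 4.73, 6.28 and 7.76 CPM against 15.6, 17.8 and 25.3 CPM in vitro. All NFKBIE-wt libraries, including the 3 named above, lay at 15.6 CPM or higher and all NFKBIE-ko libraries at 8.82 CPM or lower (log2 fold change -2.09, SE 0.14, adjusted p = 5.05e-09). Pipox, a peroxisomal oxidase of amino acid breakdown, fell by 1.91, Slc6a9, a glycine transporter, by 1.37, and Endod1, which encodes a protein with an endonuclease domain, by 1.28. Atf5, a transcription factor of the stress response, fell by 1.15, Arhgap18, a GTPase-activating protein, by 1.14 and Hip1r, which links clathrin coats to actin, by 1.13. Ptov1 fell by 1.14 and Lig4, the DNA ligase of non-homologous end joining, by 1.01, and without NFKBIE-wt spleen replicate 4 and in vitro replicate 3 the change of Lig4 was -0.88. The adjusted p of the 8 genes after Gpr171 was between 2.78e-06 and 6.14e-05.

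**Figure D2:**
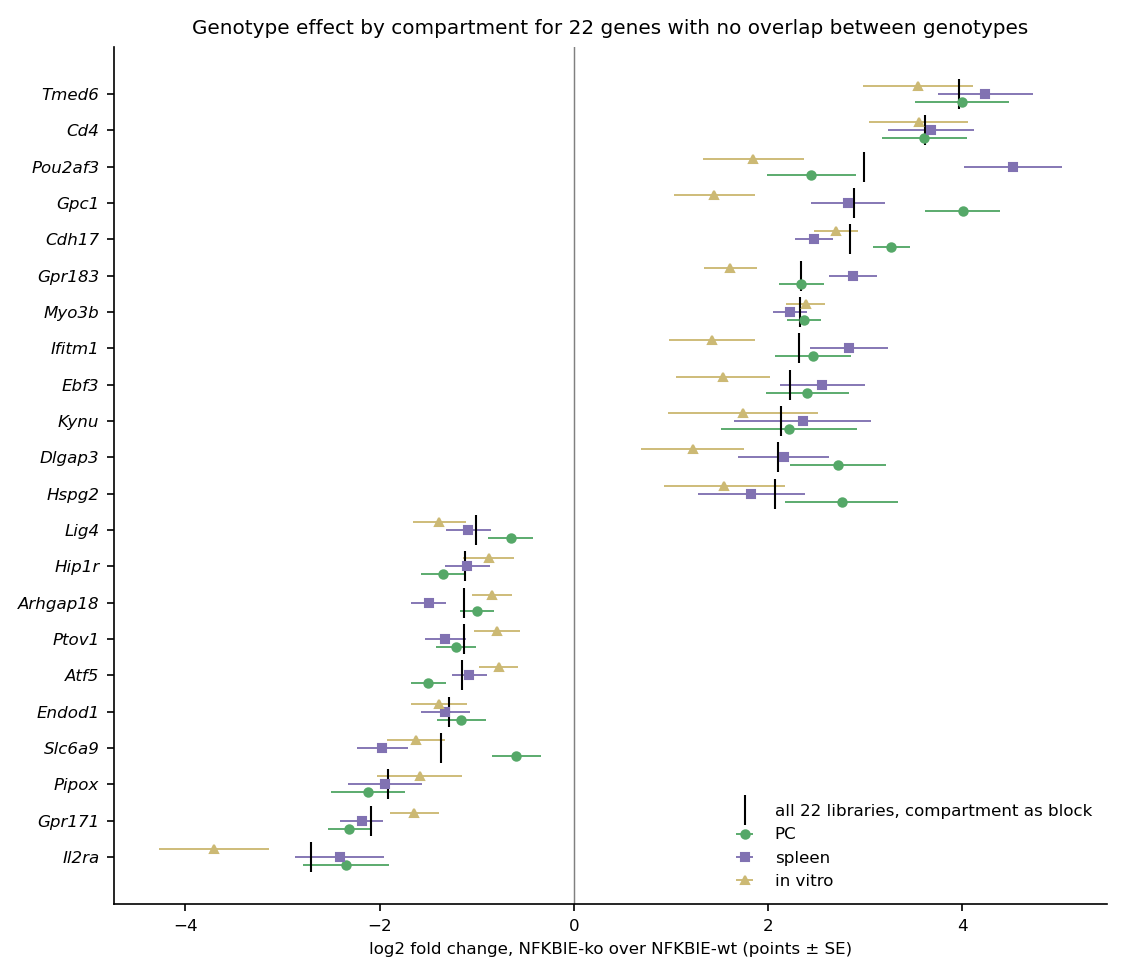
Log2 fold change of NFKBIE-ko over NFKBIE-wt with its standard error in the PC (circles), the spleen (squares) and in vitro (triangles) for the 22 leading genes, with a tick for the fit of all libraries. All 12 genes that rose lie right of 0 in each compartment, from 1.23 for Dlgap3 in vitro to 4.52 for Pou2af3 in the spleen. All 10 that fell lie left of 0, from -3.71 for Il2ra in vitro to -0.59 for Slc6a9 in the PC. The choice of these genes required one direction in each compartment, so the sides of 0 are no result.

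The NF-κB pathway was described from lists of its members. Among the 5 subunit genes, Nfkb2 and Nfkb1 passed the adjusted p in the same direction and the other 3 did not (median log2 fold change of the list 0.22). By the same rule 10.8% of all tested genes were higher and 14.8% lower. Nfkb2 was at 247, 206, 216 and 195 CPM in NFKBIE-ko against 108, 132, 111 and 119 CPM in NFKBIE-wt PC, 367, 269, 380 and 368 CPM against 153, 134, 169 and 304 CPM in the spleen, and 407, 402 and 396 CPM against 261, 349 and 112 CPM in vitro. The genotypes were apart in the PC and in vitro and overlapped in the spleen through NFKBIE-wt replicate 4 (log2 fold change 0.83, SE 0.15, adjusted p = 0.00037). Nfkb1 rose by 0.33 (adjusted p = 0.00301), with 0.41 in the PC, 0.46 in the spleen and 0.06 in vitro. Without the first 2 named libraries 1 of the 5 subunit genes was called.

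Of the 6 inhibitor genes 1 was called, Nfkbiz, which encodes the nuclear IκBζ and fell by 0.80 (adjusted p = 0.0199). Of 23 genes that signal upstream of NF-κB, 5 rose and 2 fell, where 10.8% of all tested genes rose and 14.8% fell by the same rule. In this and the other lists, a gene rose or fell when the genotype term passed over all libraries and the sign was the same in all compartments, whether or not each compartment passed alone. Traf5, an adaptor of TNF receptors, rose by 0.74 and Malt1, the paracaspase of the B-cell receptor complex, by 0.67, whereas Map3k14, the kinase of the non-canonical pathway, fell by 0.46. The rise of Traf5 differed between compartments (0.84, 1.08 and 0.14, adjusted p of the interaction 0.0107).

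The largest of the pathway lists held textbook targets of NF-κB in B cells. Of 36 targets, 18 rose (10.8% of all tested) and 1 fell (14.8%), and 8 were common genes that rose (2.9% of all tested) and 1 a common gene that fell. The median log2 fold change of the 36 was 0.73 over all libraries, 0.70 in the PC, 0.98 in the spleen and 0.28 in vitro. Without the first 2 named libraries 19 rose and 1 fell, and without all 3, 20 rose and 1 fell. Il2ra was the target that fell.

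The targets that rose included 3 neighbours on chromosome 17, the cytokine genes Lta, Tnf and Ltb. Lta, which encodes lymphotoxin alpha, was at 4.03, 5.87, 4.5 and 3.92 CPM in NFKBIE-ko against 0.445, 0.159, 0.234 and 0.471 CPM in NFKBIE-wt PC, 1.91, 2.72, 2.3 and 1.22 CPM against 0.482, 0.121, 0.312 and 0.967 CPM in the spleen, and 4.84, 5.08 and 4.62 CPM against 1.37, 1.31 and 0.45 CPM in vitro. It showed no overlap and rose by 2.72 (SE 0.34, adjusted p = 1.18e-05). Ltb, its membrane-bound partner, was at 170, 169, 167 and 167 CPM against 46.1, 57.9, 57.6 and 63.5 CPM in the PC, 183, 122, 250 and 203 CPM against 52.2, 81.4, 68.1 and 110 CPM in the spleen, and 432, 427 and 444 CPM against 150, 239 and 58.8 CPM in vitro. Again no library overlapped (log2 fold change 1.46, SE 0.17, adjusted p = 8.79e-06). Tnf rose by 1.62 (adjusted p = 0.000107), with an overlap in the PC, where NFKBIE-ko libraries had 5.14 to 14.7 CPM and NFKBIE-wt libraries 1.72 to 6.32 CPM.

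Of the remaining targets, Cd40, the receptor for T-cell help, rose by 1.12 with no overlap (33.5 to 36.6 CPM against 7.15 to 32.6 CPM in vitro, adjusted p = 0.000372). Slamf1, a costimulatory receptor, rose by 1.62, the death receptor gene Fas by 1.51, the survival gene Bcl2a1d by 1.29 and Ebi3, a cytokine subunit gene, by 1.13. Slamf1 was low, at 0.0387 to 0.402 CPM in the NFKBIE-wt libraries, and Bcl2a1d shares reads with near-identical copies, so that its value is uncertain. Icam1, the ligand of LFA-1, rose by 0.99 and Ccr7, a homing receptor, by 0.93, both under the fold.

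Promoters were searched for the κB motif because it was not used in choosing the genes. RefSeq windows from 250 bases before to 50 bases after a start (GRCm38.p6) were found for 73.1% of the tested genes, and a gene counted when any of its windows held the motif on either strand. A match was found for 56 of 274 common genes that rose (20.4%), for 35 of 262 that fell (13.4%) and for 1208 of 9893 of all tested genes (12.2%). Over all 32851 windows, 8.46% held a match. The shares are a description, a match is not a site of binding, and genes with several windows have more chances of one. The windows of Ltb, Nfkb2 and Il2ra are shown because these 3 targets moved in the results above, the last of them downwards, and capitals mark the κB matches.
Ltb (chr17:35194257-35194556, GRCm38.p6, forward strand): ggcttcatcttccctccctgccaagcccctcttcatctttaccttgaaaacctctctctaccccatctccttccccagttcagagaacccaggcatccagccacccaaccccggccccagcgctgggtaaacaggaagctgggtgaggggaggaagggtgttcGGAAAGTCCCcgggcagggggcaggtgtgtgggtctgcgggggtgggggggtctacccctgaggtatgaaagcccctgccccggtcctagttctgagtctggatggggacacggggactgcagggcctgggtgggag
Nfkb2 (chr19:46304487-46304786, GRCm38.p6, forward strand): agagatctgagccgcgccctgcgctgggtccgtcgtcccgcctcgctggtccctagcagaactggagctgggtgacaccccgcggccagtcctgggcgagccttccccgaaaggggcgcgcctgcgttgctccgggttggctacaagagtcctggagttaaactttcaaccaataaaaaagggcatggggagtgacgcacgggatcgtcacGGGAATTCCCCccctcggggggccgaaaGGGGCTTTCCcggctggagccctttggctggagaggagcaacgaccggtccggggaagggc
Il2ra (chr2:11642542-11642841, GRCm38.p6, forward strand): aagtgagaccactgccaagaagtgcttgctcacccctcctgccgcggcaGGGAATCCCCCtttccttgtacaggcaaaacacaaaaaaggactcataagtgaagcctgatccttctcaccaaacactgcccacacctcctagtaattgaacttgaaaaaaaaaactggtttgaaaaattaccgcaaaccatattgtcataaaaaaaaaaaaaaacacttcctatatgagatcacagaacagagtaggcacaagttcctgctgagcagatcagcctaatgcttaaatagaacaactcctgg
The first match began at position -87 in Ltb, -39 in Nfkb2 and -201 in Il2ra relative to the start of the transcript. The Nfkb2 window is 1 of 3 of this gene that held matches, at -236 and -225 in the others.

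MHC class II molecules present antigen to helper T cells. Of 11 of their genes and regulators, 8 rose (10.8% of all tested) and 0 fell, 4 of them as common genes (2.9%), and the median log2 fold change was 0.85 (1.15 in the PC, 0.29 in the spleen and 1.24 in vitro). H2-Aa, which encodes the alpha chain of I-A, rose by 1.05 (adjusted p = 0.00123), H2-Eb1, the beta chain of I-E, by 1.05, and H2-Oa, a chain of the peptide-loading regulator, by 1.36. In the spleen alone none of these 3 passed (adjusted p = 0.319, 0.334 and 0.418). H2-Aa and H2-Eb1 overlap in the annotation, so that their values are uncertain. The H2-Aa levels were 477 to 744 CPM in NFKBIE-ko and 191 to 248 CPM in NFKBIE-wt PC, 361 to 712 against 245 to 645 CPM in the spleen, and 1280 to 1350 against 242 to 999 CPM in vitro. The genotypes overlapped in the spleen, where NFKBIE-wt replicate 4 was the highest NFKBIE-wt library. Without that library and NFKBIE-wt in vitro replicate 3, 10 of 11 rose. Of 13 MHC class I genes 2 rose and 0 fell (median 0.13), and 1 rose without these libraries and 0 without all 3.

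Of 46 cytokine and chemokine receptors 17 rose and 5 fell, and of 33 adhesion and homing molecules 8 rose and 4 fell, beside 10.8% and 14.8% of all tested genes. Il10ra, a chain of the interleukin 10 receptor, rose by 1.35 with no overlap and Cxcr3, a chemokine receptor of activated lymphocytes, by 2.15, whereas Il6st, the gp130 chain shared by the interleukin 6 family, fell by 1.46. The chemokine and homing genes also included S1pr2, the receptor that confines B cells to germinal centres, which fell by 1.65 (adjusted p = 0.000217), and S1pr3, which rose by 1.56 from few counts. Of 30 genes of B-cell receptor signalling 10 rose and 4 fell. The inhibitory receptor gene Lair1 rose by 2.24, and Cr2, which encodes the complement receptor CD21, fell by 2.82 (adjusted p = 0.000363).

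The Cr2 levels were 0.95 to 1.15 CPM in NFKBIE-ko and 8.65 to 14 CPM in NFKBIE-wt PC. In the spleen and in vitro the genotypes overlapped through 2 libraries, NFKBIE-wt spleen replicate 4 at 0.271 CPM and in vitro replicate 2 at 0.154 CPM, while the other NFKBIE-wt libraries had 3.3 to 11.3 CPM and all NFKBIE-ko libraries 1.38 CPM or less. Ighm, the constant region gene of the leukemic IgM, fell by 0.53 with no overlap (5660, 5510, 5600 and 5920 CPM against 8110, 8330, 8400 and 8060 CPM in the PC, adjusted p = 3.06e-06), a gene singled out after its values were seen.

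The lists of this paragraph are read against the same 10.8% higher and 14.8% lower, which the BCL2 family genes that rose and the cell cycle genes were near. Of 24 Toll-like receptors and adaptors 8 rose and 1 fell, among them Irak3, a negative regulator of their signalling (1.60, adjusted p = 2.92e-05). In the BCL2 family 2 of 16 rose and 5 fell. The BH3-only gene Pmaip1, whose product promotes death, rose by 1.76 (2.56 in the PC, 2.14 in the spleen and 0.06 in vitro), and Bmf, another BH3-only gene, fell by 2.30. Glycolysis genes rose in 14 of 21 cases and fell in 0, each by less than the fold (median 0.46), with Pgam1, phosphoglycerate mutase, at 0.75, Pfkl, liver phosphofructokinase, at 0.70 and Tpi1, triosephosphate isomerase, at 0.68. Without the first 2 named libraries 16 of 21 rose. Of 39 cell cycle genes 4 rose and 5 fell (median 0.03), and Cdk6, a kinase of the G1 phase, fell by 0.96. None of 21 cholesterol synthesis genes had one direction in all compartments, but without the first 2 named libraries 9 rose and 2 fell.

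The interferon-stimulated genes did not share one direction, with 4 of 31 called higher, 0 lower and medians of 0.74 in the PC, 1.20 in the spleen and -0.47 in vitro. By the same rule 10.8% of all tested genes were higher and 14.8% lower, so that the share called higher was near that of all genes. Usp18, the protease that removes ISG15 and dampens the interferon receptor, rose by 1.88 and differed between compartments (1.22, 3.44 and 0.84, adjusted p of the interaction 0.00958), and Isg15 rose by 1.25. Only 3 of these genes were called without the first 2 named libraries and 1 without all 3.

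Of 24 immediate-early genes, which respond within minutes to receptor signals, 6 fell and 1 rose, with a median of -0.73, and with 10 lower and 1 higher without the first 2 named libraries. Of all tested genes, 14.8% fell and 10.8% rose over all libraries. Fosl2, an AP-1 subunit, was at 37.9, 31.2, 48.5 and 53.9 CPM against 220, 178, 268 and 118 CPM in the PC and 18.7, 21.2, 10.8 and 16.3 CPM against 83.9, 80.8, 131 and 2.63 CPM in the spleen. In vitro it was at 2.59, 2.16 and 1.61 CPM against 7.88, 2.15 and 138 CPM. NFKBIE-wt spleen replicate 4 lay below all NFKBIE-ko spleens and NFKBIE-wt in vitro replicate 3 far above the other cultures (log2 fold change -2.71, adjusted p = 0.0021, and -2.15 without both). Fos and Fosb were called lower, at -3.64 (adjusted p = 0.0458) and -4.51 (0.042), with -0.24 and -0.04 in the spleen, but in vitro their difference came from NFKBIE-wt replicate 3, at 970 CPM of Fos where the other 5 cultures had 1.42 to 4.34 CPM. Without that library the changes were -1.92 (adjusted p = 0.101) for Fos and -2.26 (0.147) for Fosb, and without NFKBIE-wt spleen replicate 4 as well they were -2.29 (0.0138) and -2.82 (0.0377).

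Of 30 B-lineage transcription factors 4 rose and 7 fell, with Prdm1, the factor of plasma cell differentiation, at -1.31 (adjusted p = 0.00054), Ebf1 at -0.72 and Runx3 at 0.92 with no overlap. Among all tested genes 10.8% rose and 14.8% fell, and the share of these factors that rose was near the former. Of 8 plasma cell markers 4 fell and 0 rose, among them the syndecan gene Sdc1 at -1.60 and Jchain, the joining chain of polymeric IgM, at -1.56. The summed level of these markers was 944.7 to 988 CPM in NFKBIE-ko and 1028 to 1227 CPM in NFKBIE-wt PC, 977.9 to 1197 against 974.2 to 1676 CPM in the spleen, and 911.5 to 1112 against 1081 to 2014 CPM in vitro. Of 10 markers of the leukemic B cells 2 rose and 3 fell, and their sum was 9010 to 15360 CPM over all libraries, so that markers of the labelled cell type were abundant in each.

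The summed markers of other cell types differed between the genotypes in some lists and not in others. Some of these markers were also present in culture. Tbx21, on the cytotoxic and NK cell list, had 929, 1018 and 645 counts in NFKBIE-ko and 232, 548 and 12 in NFKBIE-wt cultures. Adgre1, on the myeloid list, had 765, 622 and 499 counts against 585, 554 and 65. Which cells gave these counts was not tested, so the sums need not measure host cells. The sum of 18 myeloid markers was 4068 to 5963 CPM in NFKBIE-ko and 673.6 to 1948 CPM in NFKBIE-wt PC, 146.7 to 418.2 against 43.1 to 120.6 CPM in the spleen, and 83.8 to 110.6 against 75.7 to 127.1 CPM in vitro. Granulocyte markers ran the other way in the PC, with 37.9 to 59.1 CPM in NFKBIE-ko against 189.1 to 527.2 CPM, and overlapped in the spleen (107.3 to 283.2 against 0.232 to 429.4 CPM). Cytotoxic and NK cell markers were at 72.5 to 111.7 against 32.4 to 63.8 CPM in the PC, 72.7 to 157.3 against 13.5 to 20 CPM in the spleen and 33.4 to 48.5 against 21.7 to 31.8 CPM in vitro, and erythroid markers overlapped in the PC and the spleen. The part of host cells in the common genes was not tested. Of the myeloid markers 2 rose, among them Adgre1, the macrophage gene F4/80 (1.36, adjusted p = 0.0163). T-cell markers summed to 594.6 to 650.2 against 350.2 to 443 CPM in the PC, 464.6 to 591.8 against 206.2 to 357.8 CPM in the spleen and 333.5 to 364.7 against 179.6 to 338 CPM in vitro, sums that include Cd4 itself. Of 23 T-cell markers 5 rose and 3 fell, of 14 cytotoxic and NK cell markers 1 rose and 1 fell, and of 12 granulocyte and 10 erythroid markers 1 each fell. Beside these stand 10.8% higher and 14.8% lower of all tested genes. The myeloid markers that rose and the T-cell markers that fell were near these shares.

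Of 9 stromal and endothelial markers 4 fell (14.8% of all tested), the matrix genes Col3a1, Col1a2 and Dcn and the receptor gene Pdgfra. In vitro Col3a1 was at 1.69 CPM in NFKBIE-wt replicate 3 and at 0 to 0.0413 CPM in the other 5 cultures. Without that library and NFKBIE-wt spleen replicate 4, the adjusted p of these 4 genes stayed below 0.05 (Col3a1 -3.25, adjusted p = 0.000308), but none had one direction in all compartments. The sum of this list ran the other way in the PC (103.7 to 122.2 CPM in NFKBIE-ko against 79.5 to 105.2 CPM) and overlapped in the spleen (40 to 74.8 against 40.8 to 65.9 CPM).

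The NFKBIE-wt libraries did not all stay apart from the NFKBIE-ko range. For each NFKBIE-wt library the common genes were counted in which it lay at or past the nearest NFKBIE-ko library of its compartment. In NFKBIE-wt in vitro replicate 2 this held for 248 of the 362 genes that fell (68.5%) and 143 of the 392 that rose (36.5%), and in NFKBIE-wt spleen replicate 4 for 191 (52.8%) and 132 (33.7%). In the other 9 libraries it held for 6.91% to 13.8% of the genes that fell and 2.81% to 20.2% of those that rose.

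**Figure D3:**
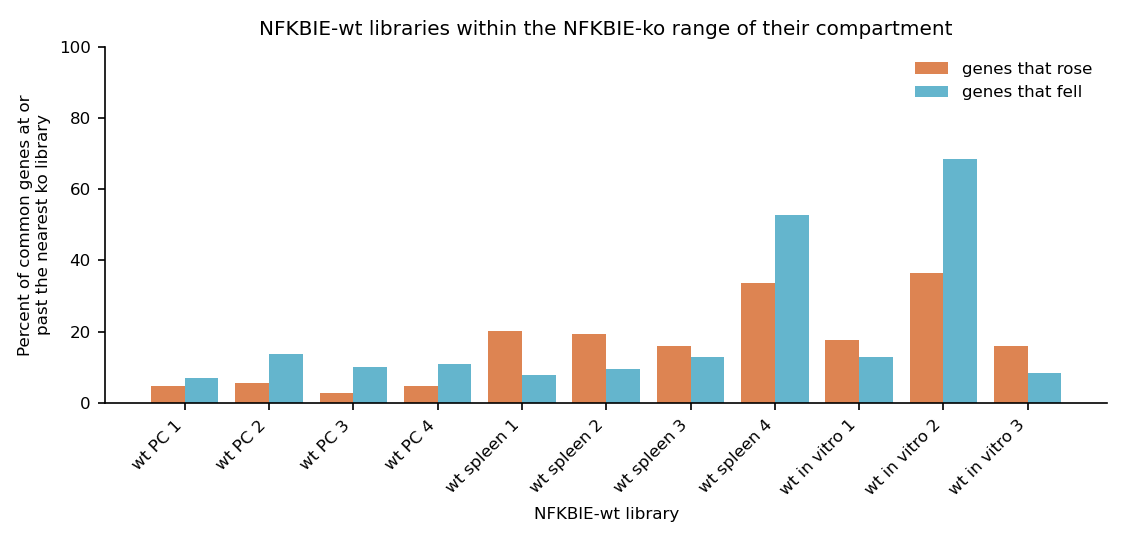
Share of the common genes in percent for which each NFKBIE-wt library lay at or past the nearest NFKBIE-ko library of its compartment, for genes that rose and genes that fell. NFKBIE-wt spleen replicate 4 (52.8% of the genes that fell) and in vitro replicate 2 (68.5%) stand above the other 9 libraries, which reach at most 20.2%.

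The next 4 genes, low in all NFKBIE-ko libraries, were singled out after their values were seen. Fermt2, which encodes the integrin activator kindlin-2, was at 0, 0, 0.0425 and 0.0396 CPM against 7.81, 11.9, 6.56 and 7.14 CPM in the PC and at 0.268, 0, 0 and 0 CPM against 82.1, 31.7, 26.5 and 78 CPM in the spleen. In vitro it was at 0, 0.0385 and 0 CPM against 75.9, 0 and 48.3 CPM, so that NFKBIE-wt replicate 2 had none. Camk2b, a calcium-dependent kinase gene, was at 4.04 to 8.63 CPM in all NFKBIE-ko libraries and at 35.4 to 407 CPM in all NFKBIE-wt libraries but in vitro replicate 2, which had 3.95 CPM. Grb10, an adaptor that restrains growth factor receptors, and its neighbour Ddc, the decarboxylase of dopamine and serotonin synthesis, were at 0 CPM in that library, where the other NFKBIE-wt cultures had 26 and 6.29 CPM of Grb10 and 5.35 and 1.57 CPM of Ddc.

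The same library had 8.18 CPM of Cd4, 0.115 CPM of Tmed6 and 17.8 CPM of Gpr171. These leading genes were chosen for no overlap, so that it had to lie apart from the NFKBIE-ko cultures in them. Nfkbie, not a common gene, was at 141 CPM in it, but NFKBIE-wt in vitro replicate 3 (54.4 CPM) lay among the NFKBIE-ko cultures. Over the common genes, NFKBIE-wt in vitro replicate 2 lay at or past the nearest NFKBIE-ko library in 248 of the 362 that fell and 143 of the 392 that rose.

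Position in the genome was not used by the rule, and it set chromosome 5 apart. The median log2 fold change of its 842 tested genes was -0.34 (-0.44 in the PC, -0.29 in the spleen and -0.32 in vitro), and 81.5% of them were lower in NFKBIE-ko. For 454 (53.9%) the genotype term passed over all libraries with the lower sign in each compartment, which is the meaning of called lower here. This does not mean that each compartment passed alone. The other chromosomes, chromosome 18 left aside, had medians between -0.054 and 0.044 and 8.38% to 15.8% called lower. In 22 consecutive windows along chromosome 5, of 30 genes each but for the last of 14, the median was below 0 in each compartment, in the PC between -0.71 and -0.22. Most of these shifts were smaller than the fold of the rule, and 36 of the 362 common genes that fell lay on this chromosome (4.28% of its genes). Off chromosome 5, 1552 genes (12.2%) were called lower.

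Chromosome 18 had the opposite shift, with a median of 0.19 over 333 genes (0.20 in the PC, 0.16 in the spleen and 0.17 in vitro) and 25.8% called higher, where the other 18 chromosomes had 5.15% to 14.2%. All 8 windows, of 30 genes but for the last of 28, were above 0 in each compartment. It held 12 of the 392 common genes that rose.

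**Figure D4:**
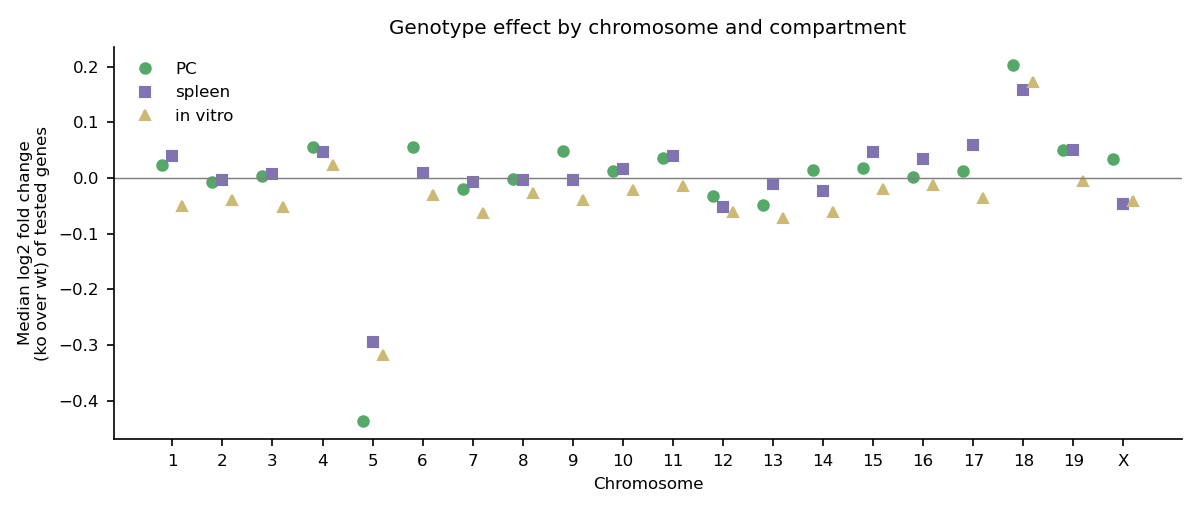
Median log2 fold change of NFKBIE-ko over NFKBIE-wt of the tested genes of each chromosome in the PC (circles), the spleen (squares) and in vitro (triangles). Chromosome 5 lies at -0.29 to -0.44 and chromosome 18 at 0.16 to 0.20, and the medians of the other chromosomes lie near 0.

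By library, genes of chromosome 5 with at least 5 CPM had a median log2 level above the mean of the NFKBIE-ko group of 0.45 to 0.50 in the NFKBIE-wt PC libraries, 0.34 to 0.38 in NFKBIE-wt spleen replicates 1 to 3, and 0.44 and 0.40 in NFKBIE-wt in vitro replicates 1 and 3. It was 0.12 in NFKBIE-wt spleen replicate 4 and -0.0083 in NFKBIE-wt in vitro replicate 2, the libraries that lay within the NFKBIE-ko range for many common genes. On chromosome 18 the NFKBIE-wt libraries were at -0.42 to -0.12 except for these 2, at 0.17 and 0.07. All 11 NFKBIE-ko libraries lay between -0.017 and 0.017 on chromosome 5. Without the libraries NFKBIE-wt spleen replicate 4 and in vitro replicate 3, the median of chromosome 5 was -0.35, and without in vitro replicate 2 as well it was -0.39. The copy number of the chromosomes was not tested.

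**Figure D5:**
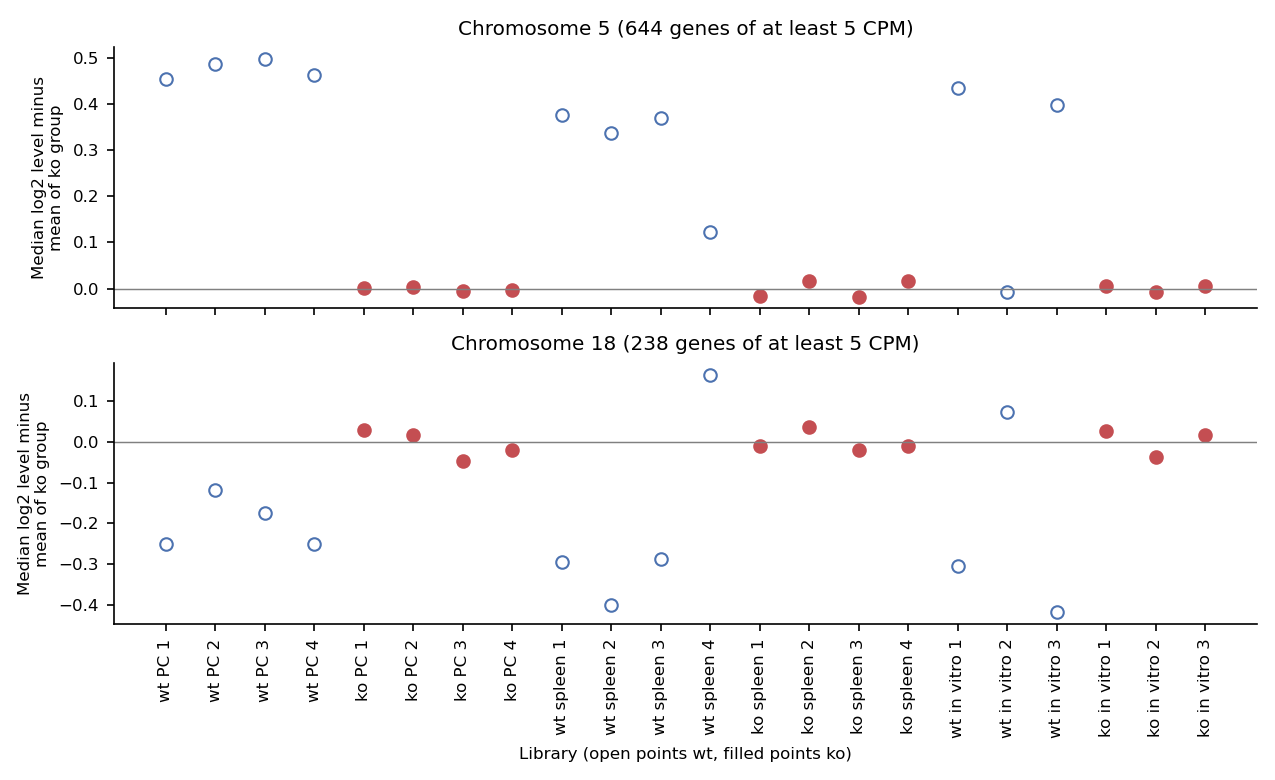
Median log2 level of the genes of chromosomes 5 and 18 in each library minus the mean of the NFKBIE-ko libraries of its compartment, with NFKBIE-wt as open and NFKBIE-ko as filled points. On chromosome 5 the NFKBIE-wt libraries lie at 0.34 to 0.50 except for spleen replicate 4 at 0.12 and in vitro replicate 2 at -0.0083.

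Common genes also lay side by side. Among genes ordered along the chromosomes, 145 common genes formed 57 runs of at least 2 direct neighbours with the same direction, 13 of them of 3 or more. The longest held 7 genes on chromosome 9 that rose (chr9:44951097-45307457, from Mpzl2 to Fxyd6, with Il10ra within) and 7 members of the Pira and Pirb family on chromosome 7, which share reads as near-identical copies and are uncertain. The run with Ltb, Tnf and Lta also held Lst1 and Aif1 (chr17:35387384-35424327). Cd4 stood at the end of a run with Gnb3, P3h3 and Gpr162 (chr6:124811202-124874758). Gnb3, a G protein subunit gene, averaged 168 CPM against 22.5 CPM in the PC, 6.37 against 3.79 CPM in the spleen and 25.9 against 11.3 CPM in vitro. A further run joined Icosl, the ligand of the costimulatory receptor ICOS, with Aire and Dnmt3l. Icosl rose by 1.50 (adjusted p = 9.69e-10), from 6.65 to 18 CPM in the PC, 19 to 48.9 CPM in the spleen and 23.3 to 79.3 CPM in vitro. Aire, the regulator of self-antigen expression in the thymus, rose by 2.62, from 2.73 ± 0.82 CPM to 27.7 ± 2.1 CPM in vitro (SD, n = 3).

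The last genes, from no list, were singled out after their values were seen. Pou2f3, known as a factor of tuft cells, was at 5.47, 7.94, 5.23 and 6.45 CPM in NFKBIE-ko and 0.0809, 0.0397, 0.117 and 0.0856 CPM in NFKBIE-wt PC. It stayed low elsewhere, at 0.115 to 0.63 CPM against 0 to 0.0387 CPM in the spleen and 0.154 to 2.27 CPM against 0 to 0.0402 CPM in vitro. The genotypes did not overlap in any compartment. Its coactivator gene Pou2af3 rose as given above, with 61.1 to 82.8 CPM against 1.13 to 7.66 CPM in the spleen, whereas the related Pou2af2 fell by 0.84 (adjusted p = 6.74e-06).

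Krt18, a keratin of simple epithelia, was at 78.4, 117, 99.7 and 108 CPM in NFKBIE-ko against 4.21, 4.21, 2.89 and 5.86 CPM in NFKBIE-wt PC, and at most 1.43 CPM in any spleen. Its rise of 3.46 differed between compartments (adjusted p of the interaction 0.0483). Ehf, an epithelial ETS factor, was at 4.17 to 6.65 CPM in NFKBIE-ko and 0 to 0.159 CPM in NFKBIE-wt PC. Epithelial cells of the host were not on a marker list, and their part in these values was not tested.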

How the data were processed

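RNA was sequenced from 22 samples in 6 groups. The authors made mRNA libraries, sequenced read pairs, ran Salmon 1.8 (GRCm39, per the submitters' processing notes) and deposited estimated counts (expected counts) per transcript without normalization. The paper gives another read length than the labels. The deposited estimated counts of 62492 transcripts, of which 69.5% were not whole, were summed per gene (GENCODE vM39, 17023 genes) and rounded, and 0.619% of counts had no gene. Fits used edgeR 4.0.16 in R 4.3.3 after TMM scaling and filterByExpr, by robust quasi-likelihood with compartment as block. Adjusted p are by Benjamini-Hochberg over 13538 genes. Direction in each compartment and the interaction came from a fit of the 6 groups. A common gene had an adjusted p below 0.05, a log2 fold change beyond 1 and one direction in all compartments. Up to 12 leading genes per direction and the common members of gene lists were named. The members and lists were chosen with earlier results of these data known, and some genes the rule names are not reported here.

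Alternatives were DESeq2 1.42.0, limma 3.58.1, other scalings, filters and counting, a replicate block and libraries left out. Replicates differed by more than sampling noise (chi-square per degree of freedom 7.13 to 213 over 30 pairs), and replicate numbers did not pair the genotypes (r from -0.264 to 0.138). Whether replicates were separate animals or cultures is given only for the groups as a whole, so p-values measure the spread between these samples. On simulated counts of 13538 genes with 200 changed by 2 on the log2 scale, the block fit recovered 187 with 1 false call. The simulated libraries were independent, with the spread of the fitted trend. They held no unlike NFKBIE-wt libraries, shared animals or chromosome shifts, so these counts do not give the error rate in the data. Figures were made with matplotlib 3.10.9.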

Additional observations from a re-analysis of the deposited data

Results flagged for a closer look

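In groups of 4 libraries, the highest or lowest value stood apart from the others in 26 of 338 groups looked at (7.69%), where chance gives about 1 in 20. The measure is the gap to the nearest library divided by the range of the group, and the groups are those of 85 named genes.

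In the NFKBIE-wt spleens, replicate 4 was the highest library for Nfkbie (0.887 of the range, 124 CPM), Pou2af3 (0.856, 7.66 CPM), Kynu (0.933, 4.14 CPM), Dlgap3 (0.890, 12.3 CPM), Malt1 (0.908, 194 CPM), Icam1 (0.853, 66.1 CPM), Isg15 (0.851, 10.5 CPM), Adgre1 (0.950, 12.8 CPM) and Pou2f3 (1.000, 0.0387 CPM). Replicate 3 was highest for Il6st (0.841, 133 CPM) and Pou2af2 (0.909, 271 CPM), and replicate 1 for Usp18 (0.895, 1.57 CPM).

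In the NFKBIE-ko spleens, replicate 2 was lowest for Nfkbie (0.833, 54.2 CPM), Nfkb2 (0.883, 269 CPM) and Pgam1 (0.922, 325 CPM) and highest for Myo3b (1.000, 15.9 CPM) and Ebf3 (0.880, 16.8 CPM). Replicate 1 was highest for Lair1 (0.951, 8.16 CPM), Pdgfra (1.000, 0.0766 CPM), Col1a2 (0.901, 0.383 CPM) and Fermt2 (1.000, 0.268 CPM) and lowest for S1pr2 (0.838, 3.29 CPM). Replicate 3 was highest for Krt18 (0.855, 1.43 CPM).

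In the PC, NFKBIE-wt replicate 2 was highest for Cd4 (0.926, 15.8 CPM) and Ehf (1.000, 0.159 CPM). NFKBIE-ko replicate 3 was lowest for Pou2af3 (0.861, 38.4 CPM).

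The effect of the genotype differed between compartments for 6 of the 85 named genes by the interaction term of edgeR's test. Among all 13538 tested genes it did for 893 (6.6%), so that the share of the named genes was near that of all genes. The adjusted p was 0.04 for Pou2af3, 0.0248 for Gpc1, 0.0107 for Traf5, 0.00958 for Usp18, 0.0356 for Pou2af2 and 0.0483 for Krt18.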

How the results depend on the processing

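The number of common genes stayed within 1.5 times of 392 that rose and 362 that fell under most alternatives. A minimum of 1 CPM in every compartment left 197 and 165, and without the cultures 837 rose. Genes without overlap, 153 in each direction, numbered 299 up and 283 down without NFKBIE-wt spleen replicate 4 and in vitro replicate 3, 643 and 714 without in vitro replicate 2 as well, and 569 and 496 without the cultures. Genes with an interaction, 893 over all libraries, numbered 1446 and 1861 in the first 2 of these settings and 456 with 1 transcript per gene. Leaving out 1 library at a time gave 155 to 286 genes without overlap that were higher, 146 to 377 that were lower, and 355 to 1778 with an interaction. The highest of each came without NFKBIE-wt in vitro replicate 2 and the lowest count of interactions without NFKBIE-ko in vitro replicate 1. Without NFKBIE-wt spleen replicate 4, 258 and 264 genes had no overlap. When libraries are left out, fewer have to lie apart, so that counts without overlap can rise for that reason alone. The leave-one-out ranges of the common genes were 357 to 467 up and 305 to 449 down. DESeq2 called 404 and 375, and limma-voom 558 and 265.

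With the replicate number as a block, 421 common genes rose and 250 fell, 619 of them shared, and the log2 fold change of Nfkbie was -0.37. Same-numbered NFKBIE-ko and NFKBIE-wt libraries did not deviate together (r from -0.264 to 0.138 over 11 pairs), so the samples shared only a number.

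Over 35 settings, 113 genes that the rule names gave 3935 values. Of these, 3773 kept the sign and the side of an adjusted p of 0.05 seen over all libraries, 162 no longer had a p below 0.05 and 0 changed sign. Nfkbie is among the 113, and its adjusted p was not below 0.05 over all libraries. The others were named because they passed in these same data with one direction in all compartments. The settings reuse most of the same libraries, so that this count is no independent support. The fold of 1 and the direction in each compartment were not part of this count. Of 22 leave-one-out fits, the adjusted p was lost in 18 for Ccnd3, in 15 for Ngp, the granulocyte marker that fell, and in 12 each for Fos, Fosb, Bbc3 and Ifit3b. Depth limits the 131 and 147 common genes under 1 CPM, and the causes of these changes were not tested.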
